A study of Mus musculus with 2 samples.

Results

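The genes described here are 8 stem cell niche factors and their receptors: the ligands Cxcl12, Kitl, Angpt1, Il7 and Thpo and the receptors Cxcr4, Kit and Tek. They were listed by name, by a rule that uses no measured value, and they are 8 of the 22652 genes with at least 1 unique molecular identifier (UMI) in either library. All 8 were found, and no filter on low values was applied to them. The IL-7 receptor genes Il7r and Il2rg are given with the other genes of the same pathways.

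The data come from mouse embryos, labelled C57BL/6 in both libraries (the study kept its conditional mutants on a mostly C57BL/6 background), at E18.5 (embryonic day), whose femoral bone marrow (BM) was crushed, digested with collagenase and depleted of lineage-committed haematopoietic cells. The cells that remained, haematopoietic stem and progenitor cells (HSPCs) and their surroundings, were profiled with BD Rhapsody, a microwell method that tags each captured polyadenylated transcript with a UMI. There were 2 libraries, 1 from wild type embryos and 1 from Bmx-CreER Wls embryos, in which tamoxifen given to the pregnant dams activates Cre in arterial endothelial cells (AECs) and deletes floxed Wls, a gene needed for secretion of all Wnt ligands. Neither the number of embryos per library nor tamoxifen treatment of the wild type library is named, so genotype, treatment and library cannot be told apart, no test between genotypes was possible and every interval below covers counting error only.

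The wild type library held 22708005 UMIs in 5998 barcodes and the Bmx-CreER Wls library 24704991 UMIs in 6825 barcodes. After filtering, 5736 and 6620 cells remained, with medians of 3128 and 3067 UMIs. The libraries had 49 barcodes in common, 48 of them among the kept cells. The targeted gene Wls (chr3:159839672-159938664, GRCm38) was counted in AEC-like cells at 10 UMIs in 77 cells in the wild type and 2 UMIs in 73 cells in the Bmx-CreER Wls library. These are 3′ reads that need not lie in the deleted part, so they do not check the deletion.

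Cells were clustered without the niche genes, and clusters were named from marker genes, which makes the names rebuilt rather than the study's own. A level, in CPM, is the number of UMIs of a gene per 1000000 UMIs of all genes in a cell class of 1 library. All markers listed for AEC-like, endothelial cell (EC)-like and osteoblast-like cells were detected in both libraries. In reticular-like cells Cxcl14 was at 0 in both libraries and Adipoq in the wild type, Alas2 and Slc4a1 were at 0 in erythroid-like cells of both libraries, and Dnase1l3 was at 0 in Bmx-CreER Wls sinusoidal EC-like cells. The reticular list summed to 3429 and 6358 CPM in reticular-like cells. There the osteoclast list was higher, at 14719 and 19161 CPM from 3 and 2 of 7 genes. The study reports Lepr+ reticular cells as almost absent at E18.5, so the name does not equate this class with them. A cluster carrying both osteoblast and reticular markers is called osteoblast- and reticular-like, and BMSC stands for BM stromal cell. Doublets were kept, and 134 wild type and 111 Bmx-CreER Wls cells in clusters with mixed markers entered no named class.

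In BM, CXCL12 is the chemokine that attracts and retains HSPCs through the receptor CXCR4, and Kitl encodes stem cell factor, the ligand of the receptor tyrosine kinase KIT. ANGPT1 binds TIE2, the product of Tek, a receptor best known from ECs. IL-7 supports early lymphoid cells through a receptor made of IL7R and the common gamma chain (Il2rg), and thrombopoietin (Thpo), largely a product of the liver, acts on stem cells and megakaryocytes. In adult BM, Cxcl12 and Kitl are known products of Lepr+ reticular cells and of ECs.

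Cxcl12 lies at chr6:117168535-117181367, Kitl at chr10:100015630-100100416, Kit at chr5:75574916-75656722 and Tek at chr4:94739289-94874976, all on the plus strand of GRCm38. Cxcr4 (chr1:128588199-128592293), Angpt1 (chr15:42424723-42676977), Il7 (chr3:7569994-7613760) and Thpo (chr16:20724454-20734511) lie on the minus strand. The sequences upstream of the transcription start are printed for the ligands with the most UMIs, Cxcl12 and Kitl, and for the receptors Kit and Tek, whose UMIs lay in blood cells and ECs respectively. They are from RefSeq, GRCm38.p6, 5′ to 3′ on the plus strand, and end where the annotated gene begins. Cxcl12 is shown from chr6:117168285-117168534, Kitl from chr10:100015571-100015629, Kit from chr5:75574737-75574915 and Tek from chr4:94739039-94739288.
Cxcl12: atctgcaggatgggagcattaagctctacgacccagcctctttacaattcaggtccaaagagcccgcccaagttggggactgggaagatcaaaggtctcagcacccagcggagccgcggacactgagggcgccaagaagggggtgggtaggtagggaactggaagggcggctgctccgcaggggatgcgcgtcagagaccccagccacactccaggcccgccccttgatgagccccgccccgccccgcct
Kitl: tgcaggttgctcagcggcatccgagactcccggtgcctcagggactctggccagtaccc
Kit: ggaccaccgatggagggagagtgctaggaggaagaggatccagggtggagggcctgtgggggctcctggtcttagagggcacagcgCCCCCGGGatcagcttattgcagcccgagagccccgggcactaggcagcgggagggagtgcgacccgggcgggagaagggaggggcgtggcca
Tek: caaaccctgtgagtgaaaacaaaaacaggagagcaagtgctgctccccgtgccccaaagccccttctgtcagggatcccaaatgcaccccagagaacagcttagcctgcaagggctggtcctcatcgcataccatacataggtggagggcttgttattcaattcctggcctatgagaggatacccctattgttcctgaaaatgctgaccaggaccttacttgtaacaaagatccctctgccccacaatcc
Capitals in Kit mark a match to the EBF motif CCCNNGGG. In the 250 bases before the start, 5 motifs of blood and stromal transcription factors were searched on both strands: the GATA factor motif, spelled AGATAA, the motif of ETS factors, CCGGAA, the motif of RUNX factors, TGTGGT, the EBF motif and the forkhead motif, GTAAACA. Of 32851 mouse promoters of the same length, 9.99%, 12%, 14%, 11.8% and 3.17% held them, in that order. Kit held the EBF match, whose first base is 164 bases before one RefSeq start and 168 before another, and Kitl an ETS match 77 bases before it, in a stretch not printed. The Cxcl12 and Tek windows held none of these letters. GC content was 64.4% in the Cxcl12 window, 69.2% in Kitl, 70.8% in Kit and 51.2% in Tek.

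Cxcl12 was highest in reticular-like cells. There were 1339 UMIs in 46 wild type cells, 7209 CPM (95% interval 6828 to 7606), and 571 UMIs in 20 Bmx-CreER Wls cells, 8251 CPM (7588 to 8956). Every reticular-like cell of both libraries had a UMI of Cxcl12. Osteoblast- and reticular-like cells followed with 1395 UMIs (3353 CPM) in the wild type and 514 UMIs (2336 CPM) in the Bmx-CreER Wls library. The level in reticular-like cells was thus 2.15 times (1.99 to 2.32) and 3.53 times (3.13 to 3.99) that of osteoblast- and reticular-like cells. Osteoblast-like cells, which lay down bone matrix, had 28.0 and 41.2 CPM. The step from osteoblast- and reticular-like to osteoblast-like cells was 120-fold (78.1 to 194) and 56.7-fold (36.3 to 93.6).

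AEC-like cells were the other strong source of Cxcl12. They held 343 UMIs, 1325 CPM (1188 to 1472), in the wild type and 422 UMIs, 1414 CPM (1283 to 1556), in the Bmx-CreER Wls library, and these levels differed by a ratio of 1.07 (0.924 to 1.23). The other EC-like cells had 15 and 11 UMIs, so the AEC-like level exceeded theirs 128-fold (76.5 to 231) and 171-fold (94.4 to 345). Sinusoidal EC-like cells had 1 UMI in the wild type and 0 in the Bmx-CreER Wls library, where the AEC-like level was at least 26.7-fold higher. Cxcl12 was thus an arterial gene among ECs in both libraries. In the 56 wild type cells that the study itself listed under its EC number 1, of which 96.4% fell into the AEC-like class, the level was 1460 CPM.

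Among classes with at least 50 cells in each library, osteoblast- and reticular-like cells led over AEC-like cells 2.53-fold (2.25 to 2.86) in the wild type and 1.65-fold (1.45 to 1.88) in the Bmx-CreER Wls library. Mural-like cells (pericytes and smooth muscle) had 374 and 262 CPM and BMSC-like cells 249 and 365 CPM, and this pair changed order between the libraries, with ratios of 1.51 (1.18 to 1.90) and 0.718 (0.561 to 0.907). Tendon-like cells followed at 151 and 138 CPM.

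In cartilage, Cxcl12 stepped down from superficial to hypertrophic cells. Superficial chondrocyte-like cells, marked by the lubricin gene Prg4, had 172 UMIs (97.4 CPM) and 275 UMIs (82.5 CPM), chondrocyte-like cells 7.99 and 15.9 CPM, and hypertrophic chondrocyte-like cells 1 and 5 UMIs. The 3 cartilage classes contributed 4.34% of 4608 Cxcl12 UMIs in the wild type and 10.8% of 3269 in the Bmx-CreER Wls library. Chondrocyte-like and superficial chondrocyte-like cells made up 16.6% and 12.4% of wild type cells, and 20.7% and 17.7% of Bmx-CreER Wls cells. An unnamed cluster led by Wif1, whose chondrocyte marker list summed to 80166 and 82652 CPM, is not counted among the 3 classes. Macrophage-like cells had 1 and 0 UMIs and osteoclast-like cells 0 and 0, which allows up to 3.15 and 5.30 CPM in the latter.

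The share of cells with a Cxcl12 UMI was 77.9% and 80.8% in AEC-like cells, 91.5% and 92.6% in osteoblast- and reticular-like cells, 41.0% and 51.7% in BMSC-like cells and 41.0% and 50% in mural-like cells. Erythroid-like cells, which should lack the gene, had 0 of 143 and 0 of 61 cells with a UMI at medians of 9854 and 10473 UMIs, against 2906 and 3609 UMIs in AEC-like cells. That allows a share of up to 2.10% and 4.92%. With each cell thinned to 1000 UMIs, which left out 4 and 1 AEC-like, 1 and 0 osteoblast- and reticular-like and 0 and 1 reticular-like cells as shallower, the shares were 50.7% and 47.2% in AEC-like, 76.1% and 75.9% in osteoblast- and reticular-like and 93.5% and 84.2% in reticular-like cells.

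**Figure D1:**
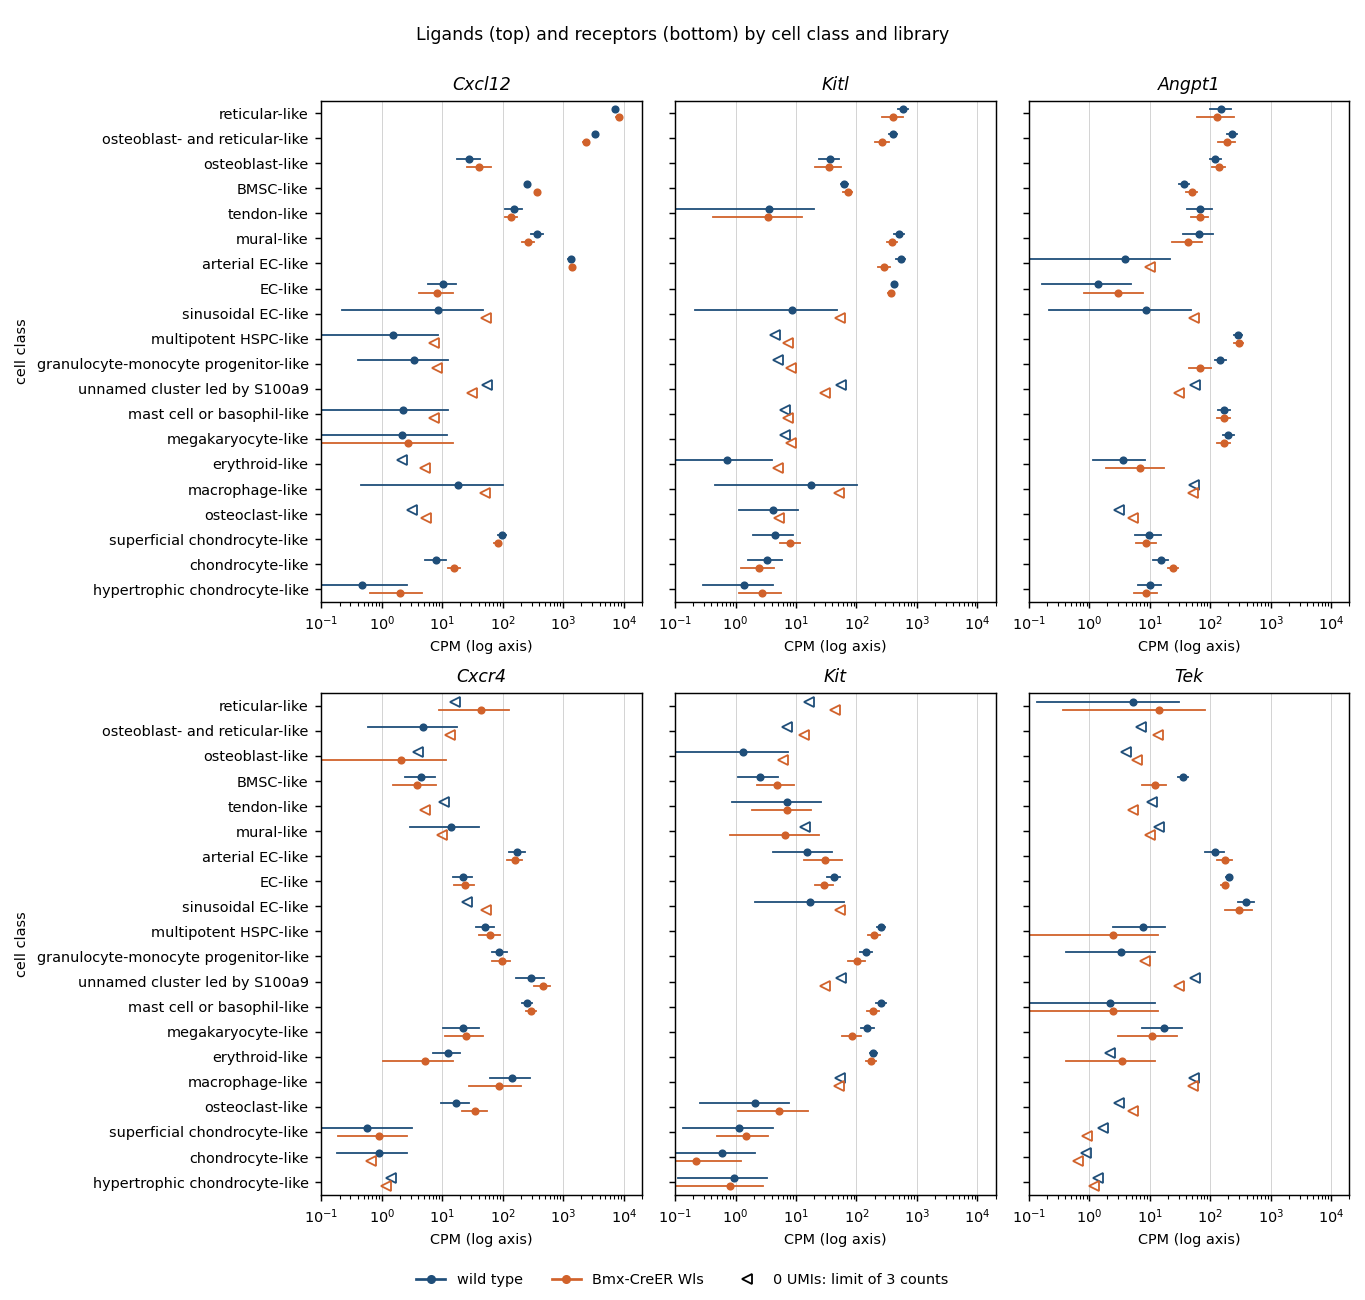
Level of each niche ligand and receptor (x axis, CPM, log axis) in each cell class (y axis) in the wild type (blue) and the Bmx-CreER Wls library (orange); points are levels of 1 library, bars are 95% Poisson intervals of the counts, and open triangles are the limit of 3 counts where a class had 0 UMIs. Cxcl12 peaked at 7209 and 8251 CPM in reticular-like cells, Kitl was spread over reticular-like, mural-like and most EC-like cells, Kit lay mostly in haematopoietic classes, and Cxcr4 was high in mast cell or basophil-like and AEC-like cells.

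Kitl, in contrast, was spread over reticular, mural-like and most endothelial classes. Osteoblast- and reticular-like cells held 169 UMIs in the wild type and 59 in the Bmx-CreER Wls library, 11.2% and 5.51% of all Kitl UMIs. Reticular-like cells had 109 UMIs (587 CPM) in the wild type and 28 (405 CPM) in the Bmx-CreER Wls library, AEC-like cells 139 (537 CPM) and 86 (288 CPM), and mural-like cells 109 (510 CPM) and 116 (385 CPM). EC-like cells had 612 UMIs (422 CPM) and 488 UMIs (368 CPM) and contributed 40.7% and 45.6% of all Kitl UMIs, more than any other class. AEC-like over mural-like cells gave 1.05 (0.813 to 1.36) in the wild type and 0.749 (0.560 to 0.998) in the Bmx-CreER Wls library. In the wild type these neighbours did not differ beyond counting error, nor did EC-like and mural-like cells (0.828, 0.674 to 1.02, and 0.955, 0.778 to 1.18). The step from AEC-like to EC-like cells turned from 1.27 (1.05 to 1.53) to 0.784 (0.616 to 0.988).

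Sinusoidal EC-like cells stood apart from the other ECs, with 1 and 0 Kitl UMIs. The EC-like level was 49.2 times theirs in the wild type, with an interval of 8.80 to 1947, and at least 6.93-fold higher in the Bmx-CreER Wls library. Within the EC-like class, the cluster led by Ablim3 had 536 and 450 CPM, that led by Nts 508 and 429 CPM and that led by Inhbb 212 and 209 CPM. Of the mural-like clusters, the smooth muscle cluster with Myh11, led by Nrip2, had 735 and 486 CPM of Kitl and the pericyte-marked cluster with Abcc9, led by Steap4, 392 and 273 CPM. Kitl was low in osteoblast-like cells, at 36.0 and 35.0 CPM, and in chondrocyte-like cells, at 3.25 and 2.43 CPM.

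A Kitl UMI was present in 72.7% and 64.4% of AEC-like, 60.3% and 62.5% of mural-like, 58.3% and 61.7% of EC-like and 73.9% and 55% of reticular-like cells, against 1 of 143 and 0 of 61 erythroid-like cells whose median depth was 9854 and 10473 UMIs, against 2925.5 and 3144.5 UMIs in EC-like cells. Thinned to 1000 UMIs, with 11 and 8 EC-like and 0 and 1 mural-like cells left out as shallower, the shares were 35.6% and 27.8% in AEC-like, 34.6% and 29.9% in mural-like, 31.0% and 30.7% in EC-like and 37.0% and 36.8% in reticular-like cells. UMIs of both Cxcl12 and Kitl were found in 34 of 46 and 11 of 20 reticular-like cells, 62 of 118 and 24 of 54 osteoblast- and reticular-like cells, 47 of 77 and 40 of 73 AEC-like cells and 27 of 78 and 32 of 88 mural-like cells.

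Angpt1 differed from both in that its highest level among classes of at least 50 cells lay in blood cells. Multipotent HSPC-like cells had 190 UMIs, 289 CPM (249 to 333), in the wild type and 120 UMIs, 295 CPM (245 to 353), in the Bmx-CreER Wls library. Osteoblast- and reticular-like cells were next, with 231 and 186 CPM, and the ratio of the leading to the next class was 1.25 (0.975 to 1.62) and 1.58 (1.10 to 2.32), so that the classes did not differ beyond counting error in the wild type. Megakaryocyte-like cells had 199 and 167 CPM, mast cell or basophil-like cells 170 and 167 CPM, and granulocyte-monocyte progenitor (GMP)-like cells 147 and 68.5 CPM. Erythroid-like cells had only 5 and 4 UMIs, 79.9-fold (33.7 to 249) and 43.2-fold (16.5 to 161) below multipotent HSPC-like cells. In the stroma, reticular-like cells had 151 and 130 CPM, osteoblast-like cells 121 and 138 CPM, tendon-like cells 68.4 and 68.2 CPM, mural-like cells 65.5 and 43.2 CPM and BMSC-like cells 36.8 and 49.2 CPM. Angpt1 was nearly absent from ECs (2 and 4 UMIs in EC-like, 1 and 0 in AEC-like cells). A UMI was present in 64.2% and 63% of multipotent HSPC-like cells (21.8% and 25.0% thinned to 1000 UMIs; medians of 5166 and 5295 UMIs) and in 0 of 119 and 0 of 76 osteoclast-like cells (medians of 7357 and 7351 UMIs; limits of 2.52% and 3.95%).

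Il7 and Thpo were close to the limit of detection. Il7 had 20 UMIs in the whole wild type library, 13 of them in reticular-like cells (70.0 CPM, 37.3 to 120, in 10 of 46 cells). In the Bmx-CreER Wls library it had 6 UMIs, none of them in the 20 reticular-like cells, which allows up to 43.4 CPM, a value inside the wild type interval. With fewer than 20 UMIs in this class, no ratio between the libraries was taken there. Over the whole libraries Il7 was at 0.898 CPM (0.549 to 1.39) in the wild type and 0.246 CPM (0.0903 to 0.536) in the Bmx-CreER Wls library. Reticular-like cells made up 0.802% and 0.302% of cells, and the part of this in the Il7 levels was not tested. In 143 wild type erythroid-like cells Il7 was at 0, and thinned to 1000 UMIs the share of wild type reticular-like cells with Il7 was 4.35%. Thpo had 33 and 37 UMIs, of which BMSC-like cells held 14 and 10 (4.44 and 5.47 CPM, in 1.5% and 1.94% of cells) and the 3 cartilage classes 36.4% and 40.5%. No Thpo UMI was seen in HSPC-like, macrophage-like or osteoclast-like cells.

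**Figure D2:**
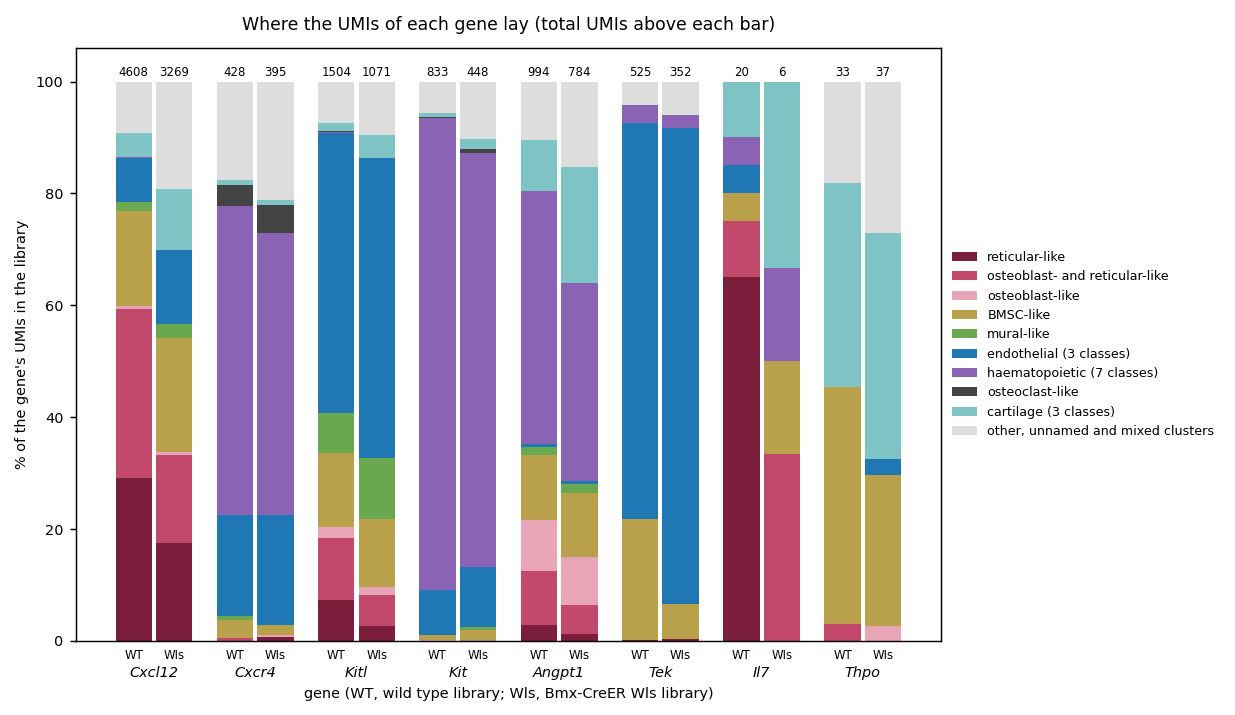
Share of the UMIs of each gene (y axis, % of the UMIs of that gene in the library) that lay in each group of cell classes (colours), for the wild type (WT) and Bmx-CreER Wls (Wls) library of each gene (x axis), with the number of UMIs above each bar. Haematopoietic classes held 84.3% and 74.1% of Kit UMIs and the 3 endothelial classes 70.9% and 85.2% of Tek UMIs, whereas Cxcl12 and Angpt1 were divided over several groups, and the bars of Il7 and Thpo rest on 6 to 37 UMIs.

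Among classes with at least 50 cells in each library, the receptor Cxcr4 was highest in mast cell or basophil-like cells, with 116 UMIs (256 CPM) and 120 UMIs (294 CPM), and AEC-like cells were next with 45 UMIs (174 CPM) and 47 UMIs (158 CPM). The first exceeded the second 1.47-fold (1.03 to 2.13) and 1.87-fold (1.32 to 2.67). AEC-like cells had 7.87 times (4.89 to 12.8) and 6.75 times (4.20 to 11) the level of other EC-like cells, so that both the chemokine and its receptor were arterial among ECs. Within the mast cell or basophil-like class, a cluster of 11 and 9 cells led by Ccl3 had 1098 and 1377 CPM of Cxcr4 and no UMI of Kit, the Prss34 cluster had 266 and 404 CPM, and the Cma1 cluster 35.1 and 48.8 CPM. GMP-like cells had 88.0 and 95.9 CPM and multipotent HSPC-like cells 51.7 and 61.5 CPM. An unnamed cluster of 24 and 34 cells led by S100a9 had a higher level than the whole mast cell or basophil-like class, 295 and 459 CPM from 16 and 45 UMIs. Macrophage-like cells had 8 and 5 UMIs, in 2 of 13 and 3 of 16 cells, and osteoclast-like cells 16.8 and 35.4 CPM. Cxcr4 was counted in 2 of 954 and 0 of 1368 chondrocyte-like cells (medians of 3181.5 and 3033.5 UMIs), against 54.9% and 53.3% of mast cell or basophil-like cells, 31.2% and 37.0% of AEC-like cells and 20% and 24.7% of multipotent HSPC-like cells. Thinned to 1000 UMIs these were 23.2% and 22.0%, 16.4% and 19.4%, and 4.20% and 4.17%.

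Kit was a gene of immature blood cells and mast cells. Mast cell or basophil-like cells had 116 UMIs (256 CPM) and 77 UMIs (189 CPM), multipotent HSPC-like cells 167 (254 CPM) and 80 (197 CPM), erythroid-like cells 263 (190 CPM) and 102 (174 CPM), megakaryocyte-like cells 152 and 85.1 CPM and GMP-like cells 144 and 101 CPM. The leading classes, mast cell or basophil-like and multipotent HSPC-like cells, did not differ beyond counting error (1.01, 0.787 to 1.28, and 0.959, 0.692 to 1.33). The mast cell cluster led by Cma1, a chymase gene, had 644 and 353 CPM. Erythroid-like cells contributed 31.6% and 22.8% of all Kit UMIs. Kit was also counted in EC-like cells, at 61 UMIs (42.1 CPM) and 39 UMIs (29.4 CPM), in 10.8% and 10.3% of cells (3.45% and 3.22% thinned). Its share in chondrocyte-like cells was 0.21% and 0.0731%. Multipotent HSPC-like cells had a Kit UMI in 72.5% and 67.1% of cells (22.7% and 22.2% thinned).

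Tek was mostly endothelial, and in the wild type it was lowest in AEC-like cells among the 3 endothelial classes, where Cxcl12 was highest. Sinusoidal EC-like cells had 46 UMIs (395 CPM) and 17 UMIs (301 CPM), EC-like cells 295 UMIs (204 CPM) and 231 UMIs (174 CPM), and AEC-like cells 31 UMIs (120 CPM) and 52 UMIs (174 CPM). Sinusoidal EC-like cells exceeded EC-like cells 1.94-fold (1.39 to 2.65) in the wild type and 1.73-fold (0.989 to 2.83) in the Bmx-CreER Wls library. EC-like over AEC-like cells gave 1.70 (1.17 to 2.55) and 0.998 (0.736 to 1.38), which leaves no order between them in the Bmx-CreER Wls library. Within EC-like cells the Inhbb cluster, with less Kitl, had 304 and 290 CPM of Tek, the Nts cluster 201 and 162 CPM and the Ablim3 cluster 129 and 112 CPM. A Tek UMI was present in 72.2% and 60% of sinusoidal EC-like cells (42.9% and 26.7% thinned) and 40.4% and 41.1% of EC-like cells (18.9% and 17.0% thinned), and in 0 of 954 and 0 of 1368 chondrocyte-like cells. BMSC-like cells had 113 UMIs (35.8 CPM) and 22 UMIs (12 CPM). Multipotent HSPC-like cells, the leading source of Angpt1, had 5 and 1 Tek UMIs.

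**Figure D3:**
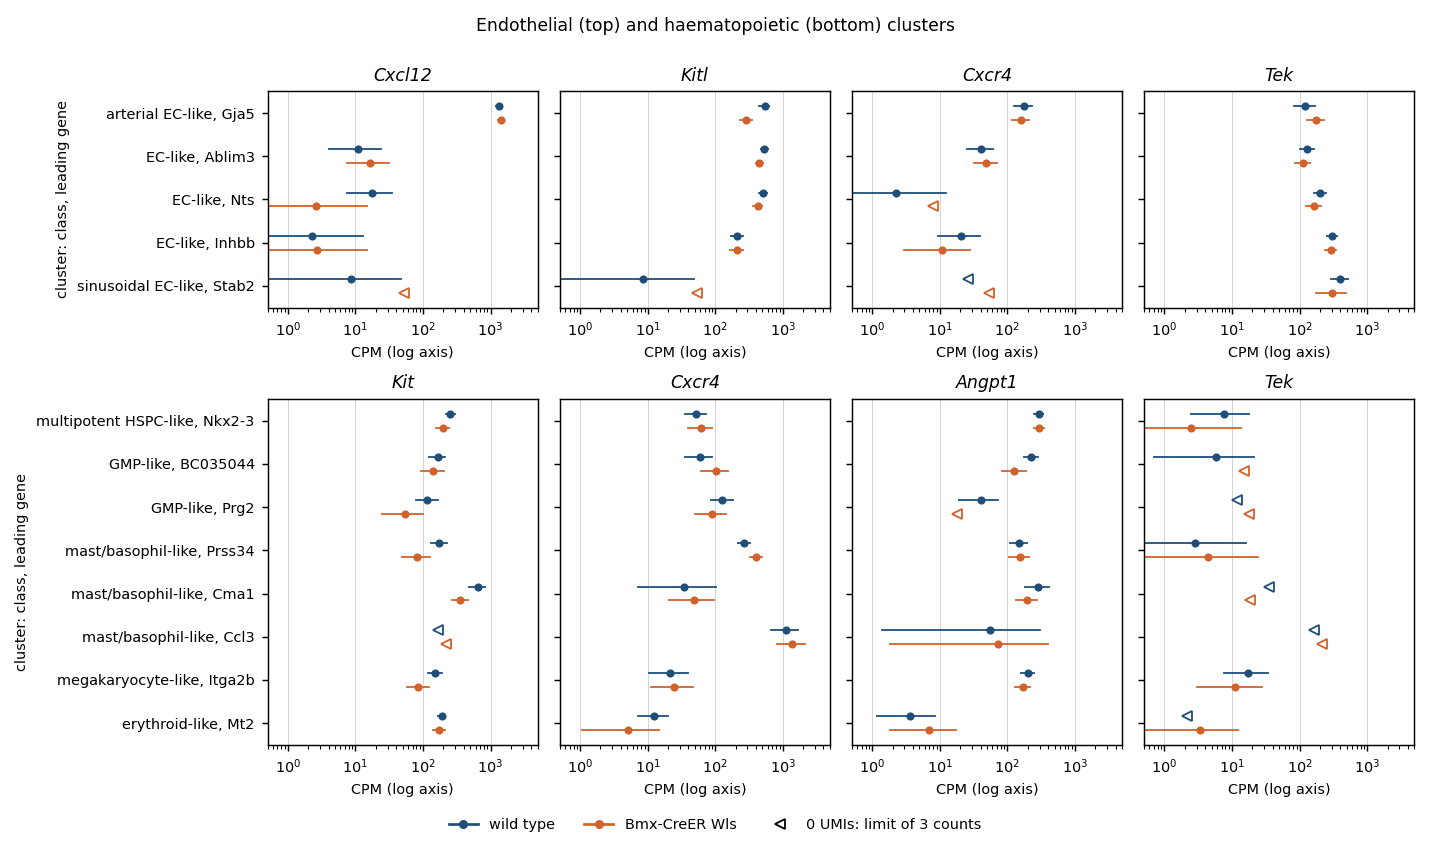
Levels (x axes, CPM, log axis) of Cxcl12, Kitl, Cxcr4 and Tek in endothelial clusters (top) and of Kit, Cxcr4, Angpt1 and Tek in haematopoietic clusters (bottom), with each cluster named by its class and leading gene (y axis); points are 1 library each, bars are 95% Poisson intervals and open triangles the limit of 3 counts at 0 UMIs. The AEC-like cluster led by Gja5 was highest in Cxcl12 and Cxcr4, the sinusoidal cluster led by Stab2 was lowest in Kitl and highest in Tek, and the Ccl3 cluster was highest in Cxcr4.

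Some cells had UMIs of both a ligand and its receptor. Cxcl12 and Cxcr4 were found together in 18 of 77 and 23 of 73 AEC-like cells (5 of 73 and 7 of 72 thinned to 1000 UMIs), Kitl and Kit in 31 of 446 and 26 of 350 EC-like cells (4 of 435 and 3 of 342 thinned), and Angpt1 and Tek in 4 of 120 and 0 of 73 multipotent HSPC-like cells. Kit and Angpt1 were found together in 58 of 120 and 30 of 73 multipotent HSPC-like cells (4 of 119 and 5 of 72 thinned). Since deeper cells show more genes and doublets were kept, these counts describe detection only.

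The genes whose levels ran most like each member over 49 profiles, each a cluster of at least 50 cells in 1 library, were found among 11181 genes by Pearson correlation of log2(CPM + 10). These were Palld (r = 0.827), Mmp11 (0.824) and Sall2 (0.787) for Cxcl12, and Gm20748 (0.889), Sema6d (0.874) and Ctnnd1 (0.857) for Kitl. Angpt1 had lower values, with Pla2g4a (0.704) and the stem cell transcription factors Hlf (0.703) and Meis1 (0.685). Kit was closest to Samsn1 (0.922), Nxpe3 (0.901) and the haematopoietic factor Tal1 (0.90), Cxcr4 to Pik3cg (0.802), Trim30a (0.799) and Snx20 (0.797), and Tek to Fgd5 (0.911), Npr1 (0.899) and Sdpr (0.899). The profiles share 2 libraries, and the clusters of a library share their run and depth.

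Between the libraries, the ratio of Bmx-CreER Wls over wild type was set beside a background. Called means a ratio past 1.5-fold, among genes with at least 100 UMIs in a class. The members met that count in 32 pairs of gene and class over 17 classes, of which 2 are unnamed clusters. Of the 32 pairs, 5 were at least 1.5-fold lower and 1 was at least 1.5-fold higher in the Bmx-CreER Wls library, and their median log2 ratio was −0.25. With pairs of at least 20 UMIs the counts were nearly even, with 9 lower and 8 higher of 63 pairs over 26 classes and a median log2 ratio of −0.15. Over all 49155 gene and class pairs with at least 100 UMIs in the 17 classes, 3.20% were at least 1.5-fold lower and 3.90% at least 1.5-fold higher. Their median log2 ratio was −0.01. At 20 UMIs a larger share of all genes passed 1.5-fold, and that share is given below with the dependence on processing. Pairs of 1 gene in several classes and of several genes in 1 class share cells and library, so the 32 pairs are not replicates.

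Kitl was lower in AEC-like cells, the class in which Bmx-CreER acts. It was at 537 CPM in the wild type and 288 CPM in the Bmx-CreER Wls library, a ratio of 0.537 (0.405 to 0.708). In this class 2.15% of genes were at least 1.5-fold lower. Over the same cells the AEC marker list summed to 4302 and 4186 CPM and the EC list to 10871 and 10943 CPM, with all 6 and all 8 markers detected in both. The chondrocyte list, however, summed to 220 CPM from 6 of 7 genes in the wild type and 690 CPM from 7 of 7 in the Bmx-CreER Wls library, and its part in the Kitl result was not tested. Thinned to 1000 UMIs, the log2 ratio of Kitl moved from −0.90 to −0.40, short of 1.5-fold. Kitl was also lower in osteoblast- and reticular-like cells (406 and 268 CPM, 0.660, 0.482 to 0.893, background 4.48%), in which the osteoblast list summed to 6452 and 4081 CPM and the reticular list to 1231 and 1054 CPM. In reticular-like cells the Kitl ratio was 0.689 (0.438 to 1.05), in mural-like cells 0.755 (0.576 to 0.99), in EC-like cells 0.870 (0.771 to 0.982) and in BMSC-like cells 1.13 (0.896 to 1.41).

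Cxcl12 did not share the difference of Kitl in AEC-like cells, where its ratio was 1.07. No Cxcl12 pair of at least 100 UMIs passed 1.5-fold. Of the Cxcl12 pairs with at least 20 UMIs, 3 of 17 were at least 1.5-fold higher and 0 lower. The share of all genes at that count is given below with the dependence on processing. In osteoblast- and reticular-like cells the ratio was 0.697 (0.628 to 0.771), in reticular-like cells 1.14 (1.04 to 1.26), and in the 2 classes pooled 0.826 (0.769 to 0.886). With each library clustered on its own, the log2 ratio in osteoblast- and reticular-like cells was 0.085 instead of −0.52. In that setting no Bmx-CreER Wls cells were named reticular-like. The cause of the shift was not tested. In BMSC-like cells the ratio was 1.47 (1.32 to 1.63). The BMSC-like cluster led by Cenpf, with the mitosis genes Prc1 and Ccnb1 also among its leading genes, stood out with 201 and 486 CPM, a ratio of 2.42 (1.91 to 3.07), while the Pi16 cluster had 1.01, the Mmp3 cluster 1.07 and the Steap4 cluster, with the most Cxcl12 UMIs in the wild type, 0.824 (0.670 to 1.01). The Pi16 cluster, low in Cxcl12 at 93.4 and 94.2 CPM, made up 250 of 932 and 44 of 516 BMSC-like cells, so that the class ratio compares different mixtures of clusters. In the Cenpf cluster the chondrocyte list summed to 539 and 804 CPM and the reticular list to 213 and 237 CPM.

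Kit was lower in the Bmx-CreER Wls library in every class with at least 100 UMIs, with ratios of 0.915 (0.721 to 1.15) in erythroid-like, 0.774 (0.586 to 1.02) in multipotent HSPC-like, 0.737 (0.546 to 0.992) in mast cell or basophil-like, 0.704 (0.465 to 1.05) in GMP-like, 0.698 (0.455 to 1.06) in EC-like and 0.561 (0.355 to 0.867) in megakaryocyte-like cells. Only the last passed 1.5-fold, with a background of 3.06%, and 4 of the 6 intervals included 1. Of all gene and class pairs with at least 100 UMIs, 51.4% had a ratio below 1. The 6 Kit pairs share their libraries and are not replicates. In megakaryocyte-like cells the megakaryocyte list summed to 316 CPM in the wild type and 958 CPM in the Bmx-CreER Wls library, with all 7 markers detected in both. The part of this in the Kit result was not tested. In mast cell or basophil-like cells, thinning to 1000 UMIs moved the log2 ratio from −0.44 to 0.30, whereas within the Prss34 cluster alone it was −1.08 and within the Cma1 cluster the ratio was 0.549 (0.373 to 0.809). Cxcr4 in mast cell or basophil-like cells had a ratio of 1.15 (0.883 to 1.5).

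Angpt1 was alike in the libraries in its leading class, multipotent HSPC-like cells, with a ratio of 1.02 (0.806 to 1.29). It was lower in GMP-like cells, 147 and 68.5 CPM, with a ratio of 0.465 (0.285 to 0.732) and a background of 3.66%. The GMP-like cluster led by BC035044 had 226 and 127 CPM (0.563, 0.344 to 0.894), and the cluster led by Prg2 held 10 UMIs in the wild type and 0 in the Bmx-CreER Wls library. In GMP-like cells the GMP list summed to 7432 and 11746 CPM, the neutrophil list to 52.5 and 214 CPM with Ltf and Ngp at 0 in both, the monocyte list to 181 and 463 CPM and the mast cell or basophil list to 628 and 397 CPM, and their part in the Angpt1 result was not tested. In chondrocyte-like cells Angpt1 was higher, 15.1 and 24.5 CPM, with a ratio of 1.62 (1.16 to 2.31) and a background of 4.23%. Its Ucma cluster had a ratio of 1.38 (0.920 to 2.11) and its Colgalt2 cluster 2.95 (1.52 to 5.89), and over the class the hypertrophic chondrocyte list summed to 493 and 254 CPM.

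Tek was lower in BMSC-like cells, with 35.8 CPM in the wild type and 12 CPM in the Bmx-CreER Wls library. The ratio was 0.336 (0.202 to 0.533), in a class where 2.88% of genes were at least 1.5-fold lower. The EC list summed to 23.5 CPM from 8 of 8 genes and 25.2 CPM from 7 of 8 in these cells, with Cldn5 at 0 in the Bmx-CreER Wls library. The Pi16 cluster, which held 71 of the 113 wild type UMIs, made up 250 of 932 wild type and 44 of 516 Bmx-CreER Wls BMSC-like cells. Within that cluster Tek was at 77.1 and 41.9 CPM (0.543, 0.226 to 1.13), and within the Steap4 cluster at 50.2 and 30.5 CPM (0.608, 0.257 to 1.34). The ratio within the Pi16 and the Steap4 cluster was thus closer to 1 than over the class. Each interval included 1 but also the class ratio of 0.336. These clusters held 8 and 10 of the 22 Tek UMIs of Bmx-CreER Wls BMSC-like cells. Tek ratios within the other BMSC-like clusters are not given here. The part of the cluster mixture in the Tek result was not tested. In EC-like cells the Tek ratio was 0.855 (0.716 to 1.02).

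**Figure D4:**
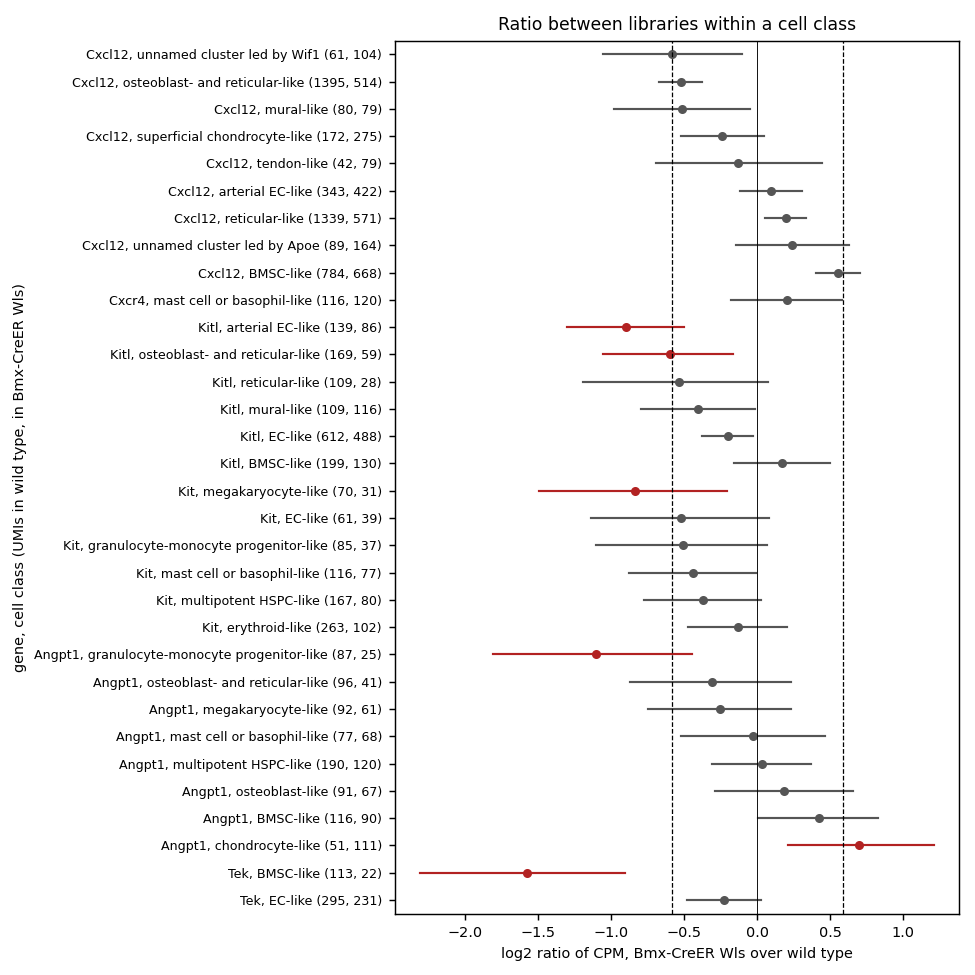
Log2 ratio of CPM, Bmx-CreER Wls over wild type (x axis), for the 32 pairs of gene and class with at least 100 UMIs (y axis, with the UMIs of both libraries); points are 1 library against 1 library, bars are 95% conditional binomial intervals, dashed lines mark 1.5-fold and pairs past it are red. 5 pairs lay below and 1 above the dashed lines, and all 6 Kit pairs lay left of 0, as did 51.4% of all gene and class pairs with at least 100 UMIs.

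Of 25 further genes of these pathways, 51 gene and class pairs had at least 100 UMIs in the 17 classes, of which 4 were at least 1.5-fold higher and 4 at least 1.5-fold lower, where 3.90% and 3.20% of all gene and class pairs were. The chemokine genes gave 4 pairs, of which 2 were lower: Ackr3, a scavenging receptor for CXCL12, was at 140 and 91.3 CPM in BMSC-like cells (0.654, 0.544 to 0.784, background 2.88%), and Dpp4, a protease that cuts CXCL12, at 79.9 and 44.8 CPM (0.561, 0.432 to 0.723). Dpp4 was also among the leading genes of the Pi16 cluster, which made up fewer of the Bmx-CreER Wls cells. The part of this in the Dpp4 result was not tested. Ackr3 was highest in an unnamed cluster led by Hbegf (690 and 522 CPM). Neither pair of the stem cell factor signalling genes Sh2b3 and Cbl passed 1.5-fold.

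The 4 pairs of Angpt2, Tie1 and Ptprb included 1 that was higher, Tie1, the sister receptor of TIE2, at 1050 and 1592 CPM in AEC-like cells (1.52, 1.30 to 1.77, background 3.99%). Ptprb, a phosphatase acting on TIE2, was at 1560 and 1696 CPM there and 522 and 519 CPM in EC-like cells. Angpt2, the antagonist ligand, was at 187 and 146 CPM in mural-like cells. Among ECs Tie1 and Ptprb, unlike Tek, were thus higher in AEC-like than in other EC-like cells in both libraries.

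Of the genes for IL-7 signalling, 3 pairs had enough UMIs, and Il2rg was higher in mast cell or basophil-like cells (181 and 304 CPM, 1.68, 1.26 to 2.25, background 3.83%). Il7r had 24 UMIs in 8 wild type and 7 UMIs in 4 Bmx-CreER Wls cells of the T or innate lymphoid-like class. Jak2, a kinase used by thrombopoietin signalling, gave 5 pairs, none of which passed 1.5-fold. Flt3, a cytokine receptor of early progenitors, was at 281 and 376 CPM in multipotent HSPC-like cells.

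The other niche and adhesion genes gave 16 pairs, of which Vcam1, which binds HSPC integrins, was higher in reticular-like cells (361 and 708 CPM, 1.96, 1.33 to 2.88, background 7.24%) and Lifr, the receptor of LIF, lower in osteoblast- and reticular-like cells (303 and 177 CPM, 0.585, 0.398 to 0.844, background 4.48%). In the 46 and 20 reticular-like cells the reticular list summed to 3429 and 6358 CPM, from 5 and 6 of 7 genes, and the mural list to 1039 and 2095 CPM, from 7 and 6 of 9 genes, and their part in the Vcam1 result was not tested. The regulators gave 17 pairs, of which Ebf1 was higher in tendon-like cells (82.8 and 142 CPM, 1.71, 1.07 to 2.85, background 8.38%) and Lepr, also a marker used for naming, lower in BMSC-like cells (38.4 and 17.5 CPM, 0.456, 0.299 to 0.678, background 2.88%). Of the tendon list UMIs in tendon-like cells, the cluster led by Tnmd held 59 of 940 in the wild type and 1328 of 2498 in the Bmx-CreER Wls library. The part of this mixture in the Ebf1 result was not tested. Foxc1, a transcription factor needed for reticular cells, was at 576 and 592 CPM in reticular-like and 464 and 436 CPM in osteoblast- and reticular-like cells, where Cxcl12 was also highest.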

How the data were processed

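Femoral bone marrow cells were profiled as 1 wild type and 1 Bmx-CreER Wls library. The authors deposited whole-number UMI counts for each gene in each barcode, which had not been normalized. Their processing notes name bcl2fastq 2.19.1.403, UMI-tools 1.0.1, STAR 2.7.1a, featureCounts 1.6.4 and mm10, and replicates were not pooled in the tables. Whether counting used strand is not given in the sources used here.

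The filter of the study was used: over 200 but under 5000 detected genes, and under 30% mitochondrial counts. Both libraries were clustered together with scanpy 1.11.5 (11 principal components, 20 neighbours, Leiden resolution 0.5) without niche and cell cycle genes, and named from marker lists. A name needed at least 3 markers raised by a log2 fold of at least 1. Levels are summed counts scaled to 1000000 (CPM) with exact Poisson 95% intervals, shares have Clopper-Pearson intervals, ratios exact conditional binomial intervals, and a count of 0 a limit of 3 counts. PCR and capture error are not covered by these intervals. On counts drawn from a Poisson distribution with 2-fold changes in AEC-like cells, the ratio interval held the true value for 97% of raised, 95.9% of lowered and 96.1% of unchanged genes. Such counts hold no variation between cells or libraries. This therefore checks the calculation of the interval only, not how well it covers these data. With 1 library per genotype no test was made.

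The named genes are the 8 members, 25 further pathway genes, the 3 genes most like each member and Wls. The members and lists were chosen with earlier results of these data known. Promoters came from RefSeq (GRCm38.p6), positions from GENCODE vM21; 6 of the 8 members had a promoter entry. Alternatives changed the clustering, filters, doublets, scaling and depth. Values within clusters and the pooled reticular classes were chosen after seeing the data. Summed marker lists were likewise added then. One further pathway gene is not reported here.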

Additional observations from a re-analysis of the deposited data

How the results depend on the processing

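No paired analysis was possible because each genotype has 1 library, and no library could be left out. Of 216 recomputed values of the results that answer a comparison, 182 stayed within their interval or within 1.5 times the count, 34 moved beyond it and 0 turned from a called value to the opposite sign; of 527 recomputed values of single genes and classes, 367 stayed and 160 moved. The cause of these moves was not tested, except that thinning and stricter filters leave fewer UMIs.

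The log2 ratio between libraries of Cxcl12 in osteoblast- and reticular-like cells (−0.52) was −0.36 with niche genes kept in the clustering, 0.085 with each library clustered on its own, −0.28 thinned to 1000 UMIs and −0.28 with both reticular classes pooled. Cxcr4 in mast cell or basophil-like cells (0.20) was −0.33 with each library clustered on its own and 0.60 in the Prss34 cluster. Kitl in AEC-like cells (−0.90) was −0.40 thinned. Kit in mast cell or basophil-like cells (−0.44) was 0.30 thinned and −1.08 in the Prss34 cluster. The count of pairs at least 1.5-fold lower (5) was 2 with at least 1000 UMIs and under 10% mitochondrial counts, 3 after removal of the top 5% by Scrublet doublet score and 0 of 8 pairs thinned; that of pairs higher (1) was 2 at resolution 1.0 and 3 with niche genes kept, with the stricter filter and after that removal. With pairs of at least 20 UMIs, 9 of 63 over 26 classes were at least 1.5-fold lower and 8 at least 1.5-fold higher. Over all genes of the 17 classes 9.30% and 10.1% were. These shares leave out the classes outside the 17. In osteoclast-like cells, outside the 17, they were 10.9% lower and 7.54% higher. In the unnamed cluster led by S100a9, also outside, they were 18.8% and 17.7%.

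Between classes in the wild type, the log2 ratio of Cxcl12 in osteoblast- and reticular-like over AEC-like cells (1.34) was 1.08 with 30 principal components, 1.13 with niche genes kept, 0.97 with the stricter filter, 1.58 as a mean over cells and 1.63 thinned; in the Bmx-CreER Wls library (0.72) it was 0.52, 1.13 with own clustering and 0.33 with the stricter filter. Wild type Cxcr4 in mast cell or basophil-like over AEC-like cells (0.56) was 1.16 as a mean over cells. Wild type Kitl in AEC-like over mural-like cells (0.07) was 0.59 with 30 components, 0.77 with the stricter filter and 0.60 after the Scrublet removal. Kit in mast cell or basophil-like over multipotent HSPC-like cells of the Bmx-CreER Wls library (−0.06) was 0.59 thinned. Wild type Angpt1 in multipotent HSPC-like over osteoblast- and reticular-like cells (0.32) was 0.75 with niche genes kept and 0.70 with the stricter filter. Wild type Tek in EC-like over AEC-like cells (0.77) was 1.39 in the cells the study listed. Of the 24 genes named as most like a member, 12 were found again with a pseudocount of 1 and 8 among genes with at least 1000 UMIs. With each library clustered on its own there was no value for Kit in megakaryocyte-like cells or for Cxcl12, Kitl and Il7 in Bmx-CreER Wls reticular-like cells.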

Other observations

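Among the mural-like clusters, the smooth muscle cluster led by Nrip2 had 163 and 63.1 CPM of Angpt1 and 436 and 297 CPM of Cxcl12 in the wild type and Bmx-CreER Wls libraries, and the Steap4 cluster had 342 and 224 CPM of Cxcl12. Among BMSC-like cells, the Steap4 cluster, with Lepr and Lpl among its leading genes, had 571 and 470 CPM of Cxcl12 and 192 and 220 CPM of Kitl. An unnamed stromal cluster led by Apoe had 555 and 655 CPM of Cxcl12.

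Il7 was closest over clusters to Hp (r = 0.862) and Thpo to Rasl10a (r = 0.749), on 26 and 70 UMIs, which leaves these values to counting error.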
